A study of Mus musculus with 6 samples.

Results

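Mast cells and basophils are granulated cells of allergic inflammation and parasite defence, and 7 genes of their shared program were examined in bone marrow hematopoietic stem cell (HSC) libraries. The genes were taken by symbol from the expression table, and all 7 were found among its 27198 genes. They comprise Fcer1a and Ms4a2, which encode the alpha and beta chains of the high-affinity IgE receptor, the granule protease genes Cpa3, Mcpt8, Prss34 and Cma1, and Hdc, which encodes histidine decarboxylase. The libraries came from unirradiated wild-type mice given solvent (Ctrl, 3 libraries) or ferulic acid over a long term (l-FA, 3 libraries). All mice of the study were male C57BL/6 of 8 to 10 weeks, and l-FA was 50 mg/kg injected intraperitoneally every day for 30 days. HSCs were sorted as Lineage-, Sca-1+, c-Kit+, Flk2- (CD135-) and CD34- cells. The comparison addresses how long-term FA alters the transcriptome of these cells.

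Both cell types arise in the marrow from progenitors that carry the stem cell factor receptor Kit, and the factors GATA2 and GATA1 act in their formation. When antigen crosslinks IgE on the receptor, the alpha chain having bound the IgE, the kinases Lyn and Syk are engaged and the granules are released. The granules hold histamine, which histidine decarboxylase makes from histidine, together with proteases bound to proteoglycan. Mcpt8 and Prss34 are classical basophil proteases of the mouse, Cma1 is a chymase of mast cells, and Cpa3, Fcer1a, Ms4a2 and Hdc are used by both cell types. Hdc is also expressed by immature myeloid cells of the marrow. The lineage cocktail named in the study's methods held antibodies to B220, CD3ε, Mac-1, Gr-1 and Ter-119, and none to the IgE receptor.

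Libraries held 19287735 to 20380610 counts and were similar in depth between groups. The expression of sort genes was read before the members, and for the genes gated against it did not follow the sorted phenotype at the RNA level. Cd34, whose protein was gated against, was read 25402 to 26391 times per Ctrl library and 31566 to 32430 times per l-FA library. Flt3, which encodes CD135, had 14232 to 15060 counts in Ctrl and 23834 to 24368 in l-FA. All 9 HSC markers listed were detected in every library, from Slamf1, with 32 to 51 counts in Ctrl and 152 to 179 in l-FA, and Hoxb5, with 65 to 78 counts, up to Hlf, with 1792 to 2377, and Meis1, with 4896 to 5871 counts. RNA levels do not measure surface protein, and no library was left out for this. Median chi-square over the genes tested was 0.884 to 1.08 between libraries of one group, above the 0.455 of counting error alone, and 8.21 to 8.83 between groups. The labels do not say whether the libraries of a group came from separate mice, so p-values measure only the spread between these libraries, which may be technical. No molecular identifiers are mentioned for these amplified libraries, so the floors given for counts of 0 cover counting error only.

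Of the 6 members tested, 3 rose and 1 fell, and the size of the fall exceeded that of the 3 rises. In the l-FA libraries Prss34 was 1.47-fold, Cpa3 1.42-fold and Mcpt8 1.3-fold its Ctrl level, whereas Hdc was 5.91-fold lower. Fcer1a lay slightly higher and Ms4a2 changed direction without 1 library, and neither passed the test. Cma1 had counts in the l-FA libraries only, at a level too low for the main test. Over the 6 members tested, 3 were higher at an adjusted p under 0.05 (edgeR's quasi-likelihood test, Benjamini-Hochberg adjustment over all genes), where 25.5% of all 16520 genes tested were higher. Lower was 1 of the 6, where 25.0% of all genes were lower. Past a 2-fold change as well, Hdc alone remained, where 5.10% of all genes were lower by that rule. Groups did not overlap for 5 of the 6, with 4 above Ctrl and 1 below, where 60.3% of all genes did not overlap, 30.4% above and 29.9% below. With 6 genes and these shares, nothing particular to the members is read from the counts. Their median, over the 6, was 0.28 on the log2 scale, beside 0.00 over all genes tested. In bulk RNA, fewer cells of a type and less RNA per cell cannot be told apart.

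**Figure D1:**
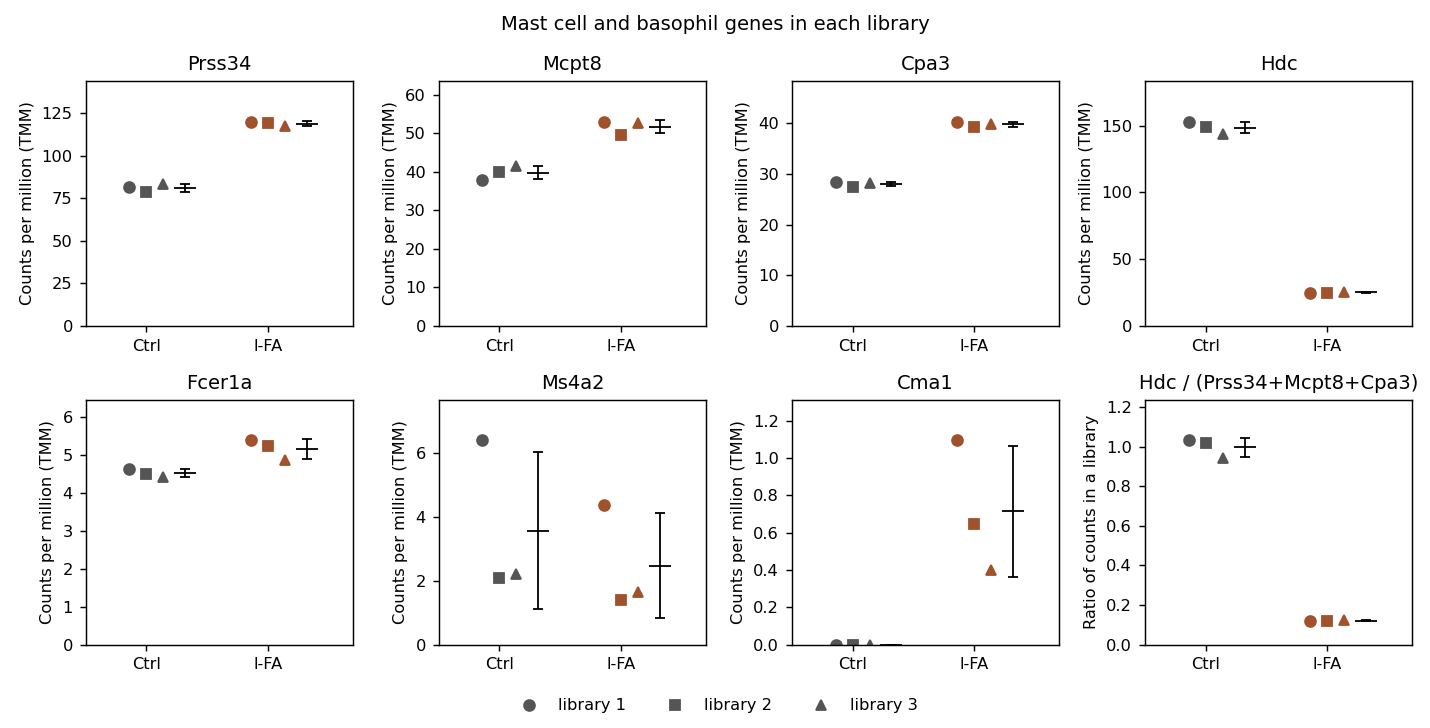
Each panel gives a gene's TMM-normalized level (CPM) in the 3 Ctrl and 3 l-FA libraries, with the mean and SD beside the points, and the last panel gives the ratio of Hdc counts to the summed counts of Prss34, Mcpt8 and Cpa3. Prss34, Mcpt8 and Cpa3 stood higher in every l-FA library and Hdc lower, and for Ms4a2 library 1 was the highest of each group.

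Prss34, a serine protease of basophils listed on chromosome 17 from 25517368 to 25519142, was the most abundant member per length. Gene positions are those of the deposited table, for which the submitters' processing notes name build GRCm39. Ctrl libraries held 1567, 1466 and 1659 of its counts, and l-FA libraries 2519, 2395 and 2342. All l-FA libraries lay above all Ctrl libraries. After TMM scaling the level went from 81.2 ± 2.39 CPM to 118.9 ± 1.43 CPM (SD, n = 3 each), a log2 fold change of 0.55 ± 0.034 (SE, edgeR adjusted p = 5.87e-05).

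Mcpt8, the basophil serine protease also known as mast cell protease 8, lies on chromosome 14 from 56319623 to 56322730. Its counts were 729, 748 and 826 in Ctrl and 1113, 997 and 1052 in l-FA, again without overlap. The mean level was 39.8 ± 1.75 CPM in Ctrl and 51.8 ± 1.81 CPM in l-FA (SD, n = 3), and the log2 fold change of 0.38 ± 0.052 (SE, edgeR adjusted p = 0.00121) was the smallest of the 3 rises. Mcpt8 belongs to a family of near relatives, whose reads the counting could have split.

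Cpa3, the zinc carboxypeptidase stored in mast cell granules, is listed on chromosome 3 from 20269784 to 20296345. The Ctrl libraries held 545, 513 and 562 counts and the l-FA libraries 846, 788 and 796. The Ctrl and l-FA ranges were again separate. Cpa3 rose from 28.0 ± 0.477 CPM to 39.8 ± 0.501 CPM (SD, n = 3), a log2 fold change of 0.51 ± 0.044 (SE, edgeR adjusted p = 0.000203). Cpa3 and Mcpt8 overlap a listed microRNA gene each, Mir7007 and Mir6949, and the strand setting of the counting is not given in the sources used here.

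The 3 proteases stayed in similar proportions to one another. Within a library, the ratio of Prss34 to Mcpt8 counts was 1.96 to 2.15 in Ctrl and 2.23 to 2.40 in l-FA. Cpa3 to Mcpt8 was 0.680 to 0.748 in Ctrl and 0.757 to 0.790 in l-FA. Both ratios were slightly higher in every l-FA library.

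Cma1, the mast cell chymase gene, lies near Mcpt8 on chromosome 14 from 56178908 to 56182132. It had 0 counts in each Ctrl library and 23, 13 and 8 counts in the l-FA libraries. Against a floor of 3 counts per Ctrl library, its mean level in l-FA was at least 4.58-fold higher. It did not pass the filter on low counts, so that edgeR's main test gave it no p. With no such filter it passed (adjusted p = 0.012 from edgeR), but the fitted fold change of a gene at 0 in 1 group depends on a prior count and is not given.

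Hdc, whose product makes histamine, moved the other way, and by more than any other of the 6 members tested. The gene is listed on chromosome 2 from 126435587 to 126461219. Its counts were 2932, 2773 and 2870 in the Ctrl libraries and 526, 497 and 510 in the l-FA libraries. No l-FA library came near a Ctrl library. The mean fell from 148.5 ± 4.37 CPM to 25.1 ± 0.383 CPM (SD, n = 3), a log2 fold change of -2.56 ± 0.038 (SE, edgeR adjusted p = 6.06e-07), and only 268 of the 16520 genes tested had a lower one. Set against the granule proteases of the same library, which needs no scaling, Hdc had 1.03, 1.02 and 0.942 counts for each count of Prss34, Mcpt8 and Cpa3 together in Ctrl. In l-FA it had 0.117, 0.119 and 0.122. Hdc and the proteases thus moved apart within the library, whatever the scaling, and no alternative setting changed the call of Hdc or of the 3 proteases that rose.

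The promoters of the 3 genes that rose and of Hdc are shown because these 4 genes carry the contrast. Each line gives the 250 bases before the RefSeq start of the gene (build GRCm38.p6, 5′ to 3′ on the gene's strand), with every GATAA on either strand in capitals, which is the core letters of GATA factor sites.
Prss34 (chr17:25298144-25298393, plus strand): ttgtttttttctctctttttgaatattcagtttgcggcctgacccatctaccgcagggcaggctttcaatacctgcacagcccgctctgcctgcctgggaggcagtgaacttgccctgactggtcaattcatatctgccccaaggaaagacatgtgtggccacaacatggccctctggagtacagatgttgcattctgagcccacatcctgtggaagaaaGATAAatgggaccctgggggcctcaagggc
Cpa3 (chr3:20242182-20242431, minus strand): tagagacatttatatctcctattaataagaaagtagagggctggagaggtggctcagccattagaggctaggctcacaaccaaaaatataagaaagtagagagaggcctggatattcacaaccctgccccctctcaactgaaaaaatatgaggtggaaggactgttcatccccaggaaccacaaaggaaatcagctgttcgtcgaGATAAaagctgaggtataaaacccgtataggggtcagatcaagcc
Mcpt8 (chr14:56085198-56085447, minus strand): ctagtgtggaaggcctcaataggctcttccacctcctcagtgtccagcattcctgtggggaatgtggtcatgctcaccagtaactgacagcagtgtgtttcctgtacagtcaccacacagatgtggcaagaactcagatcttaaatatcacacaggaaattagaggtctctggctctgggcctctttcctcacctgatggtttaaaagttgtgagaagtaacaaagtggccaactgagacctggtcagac
Hdc (chr2:126618679-126618928, minus strand): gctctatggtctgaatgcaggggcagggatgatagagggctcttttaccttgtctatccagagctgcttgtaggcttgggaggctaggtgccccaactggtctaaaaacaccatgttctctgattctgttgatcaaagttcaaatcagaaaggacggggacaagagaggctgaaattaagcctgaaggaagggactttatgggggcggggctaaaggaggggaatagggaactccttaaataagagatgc
GATAA was found once before Prss34, 30 bases from the start, and once before Cpa3, 45 bases from it. Before Mcpt8 and Hdc these letters did not occur in this window. Of the other members, Ms4a2 held 3 and Fcer1a and Cma1 held 1 each, so 5 of 7 members had the motif, as did 22.5% of 32536 promoter windows of the same length. CATGTG, an E-box of the kind that MITF binds, occurred before Prss34 and Fcer1a and in 12.3% of all windows. GAGGAA, the core of PU.1 sites, occurred before Mcpt8 and Fcer1a and in 23.4% of all windows. The 3 motifs were searched on both strands, and none contains another. A match is a description of these letters and not a bound site. For Fcer1a the bases just after the start were not found in an annotated transcript of the gene, as they were for the other members. The window of Fcer1a is therefore less certain.

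Fcer1a encodes the receptor chain that binds IgE and is listed on chromosome 1 from 173048851 to 173054781. It had 89, 84 and 88 counts in Ctrl and 113, 105 and 97 in l-FA. Every l-FA library was above every Ctrl library, by little. Levels were 4.52 ± 0.111 CPM and 5.16 ± 0.271 CPM (SD, n = 3), and the log2 fold change of 0.19 ± 0.097 (SE, edgeR adjusted p = 0.172) did not pass.

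Ms4a2 encodes the beta chain, which amplifies the receptor's signal, and lies on chromosome 19 from 11592887 to 11601083. Its counts were 123, 39 and 44 in the Ctrl libraries and 92, 28 and 33 in the l-FA libraries. In each group library 1 held more than 2 times the counts of either other library, and the groups overlapped. The log2 fold change was -0.52 ± 0.60 (SE, edgeR adjusted p = 0.513). Without Ctrl library 1 it turned to 0.21 (adjusted p = 0.782 from edgeR), and without both libraries numbered 1, an alternative chosen after these counts were seen, it was -0.48 (adjusted p = 0.126 from edgeR).

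Expressed per length, as the FPKM values made by the authors, the members took a different order in the groups. In Ctrl, Prss34 (29.2 ± 1.0 FPKM, SD, n = 3) and Mcpt8 (27.8 ± 1.31 FPKM) led and their libraries overlapped. Hdc followed at 19.2 ± 0.507 FPKM and Cpa3 at 18.0 ± 0.373 FPKM, without overlap between them. Far below stood Fcer1a at 2.84 ± 0.0635 FPKM and Ms4a2 at 0.773 ± 0.532 FPKM. Prss34 lay above 93.0% of all listed genes. In l-FA the order was Prss34 (45.1 ± 0.665 FPKM), Mcpt8 (38.2 ± 1.42 FPKM) and Cpa3 (26.9 ± 0.424 FPKM), which were separate from each other. Hdc had dropped to 3.44 ± 0.0514 FPKM, within the range of Fcer1a (3.42 ± 0.189 FPKM). Ms4a2 and Cma1 came last, with overlapping libraries at 0.568 ± 0.381 and 0.453 ± 0.225 FPKM. The other receptor subunit, the gamma chain gene Fcer1g, is shared with other Fc receptors and is given with the signaling genes.

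Over the 6 libraries, the profile of Prss34 was most like those of Rasl12, Dph5, Irgm2, Pgap4 and Ighv11-2 (Pearson r of log2 CPM from 0.9989 to 0.9995, among 14619 genes with a mean of at least 1 CPM). The points fall at 2 group levels, and 332 genes had an r above 0.99.

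The wider program was read from 59 further mast cell and basophil genes, of which 51 were analysed here and 49 tested. Of these, 28 were higher and 8 lower in l-FA at an adjusted p under 0.05, and 13 did not pass. Of all genes tested 25.5% were higher and 25.0% lower by this rule, and every count for a role or marker list given here is to be read against these shares. The median log2 fold change was 0.33, beside 0.00 over all genes. Medians of the marker lists given below ran from -1.59 (neutrophil and monocyte) to 0.84 (eosinophil), with HSC markers at 0.30 and megakaryocyte markers at 0.40. The wider list also holds genes not particular to mast cells and basophils, such as Kit, on which the HSCs were sorted. Past a 2-fold change, 6 were higher and 2 lower, where 6.68% and 5.10% of all genes were. The genes past both thresholds were Tpsb2, Cd200r3, Itga2, Il18r1, Tnf and Ptgs2, all higher, and Il6 and Cebpa, both lower. Tpsb2, Cd200r3 and Il6 passed the filter on low counts only through the group where they were high. With at least 10 counts required in every library, 26 genes of the list were higher and 7 lower.

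Tpsb2, a tryptase of mast cell granules and a neighbour of Prss34 on chromosome 17, had 0 counts in every Ctrl library and 48, 49 and 58 in the l-FA libraries. Its level was at least 16.3-fold higher against the floor of 3 counts per library, and it entered the test only through the l-FA libraries. Tpsb2 and Cma1 thus had counts in the l-FA libraries alone, unlike Cpa3. Cma2, a chymase relative named after its values were seen, had 0 counts in Ctrl and 3, 3 and 1 in l-FA, which is at the floor.

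Among surface markers, Cd200r3, an activating receptor of basophils and mast cells, had 9, 2 and 4 counts in Ctrl and 68, 56 and 67 in l-FA (log2 fold change 3.56 ± 0.36 SE, edgeR adjusted p = 0.000374), and it entered the test only through the l-FA libraries. Itga2, the CD49b integrin chain of basophils and NK cells, had 19, 39 and 23 counts against 137, 161 and 144 (log2 fold change 2.36 ± 0.27 SE, edgeR adjusted p = 0.000547). For both genes every l-FA library exceeded every Ctrl library. Itgb7, an integrin gene that serves mast cell progenitor homing, had the highest mean FPKM of the surface markers. It rose by 0.57 on the log2 scale (adjusted p = 2.72e-05 from edgeR). Cd63, a tetraspanin of granule membranes named after its values were seen, fell by 0.67 on the log2 scale (adjusted p = 9.15e-05 from edgeR).

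Of 7 growth factor and cytokine receptors, 4 were higher and none lower. The interleukin 18 receptor gene Il18r1 had 34, 43 and 46 counts in Ctrl and 180, 170 and 203 in l-FA (log2 fold change 2.09 ± 0.15 SE, edgeR adjusted p = 9.28e-05). Kit, on which the cells were also sorted, differed far less, with a log2 fold change of 0.12 ± 0.019 (SE, edgeR adjusted p = 0.00238). The receptor chains of interleukin 3, the basophil growth factor, were read from Il3ra (0.51, adjusted p = 0.026) and Csf2rb2 (0.69, adjusted p = 0.00724, both from edgeR and named after their values were seen), while the more abundant common beta chain gene Csf2rb did not pass (0.38, adjusted p = 0.339 from edgeR) and its groups overlapped. Csf2rb2 shares near-identical sequence with Csf2rb, so its value is uncertain.

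In IgE receptor signaling 7 of 12 genes were higher and 2 lower, none past 2-fold. The largest change was in Fyn, a Src-family kinase, which fell by 0.97 on the log2 scale (± 0.063 SE, edgeR adjusted p = 6.98e-05). The adaptor genes Lat2 (0.48, adjusted p = 0.000317) and Lcp2 (0.42, adjusted p = 0.000221) and the kinase gene Syk (0.33, adjusted p = 0.00016) rose in the same edgeR fit. These 4 genes were named after their values were seen. Plcg2, the most abundant, had a log2 fold change of 0.09 (adjusted p = 0.0319 from edgeR), a call that was lost in 7 of 13 alternatives, among them those without Ctrl library 1 or 3 and without l-FA library 2 or 3. Fcer1g, also named after its value was seen, was higher by 0.23 (adjusted p = 0.0314 from edgeR).

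**Figure D2:**
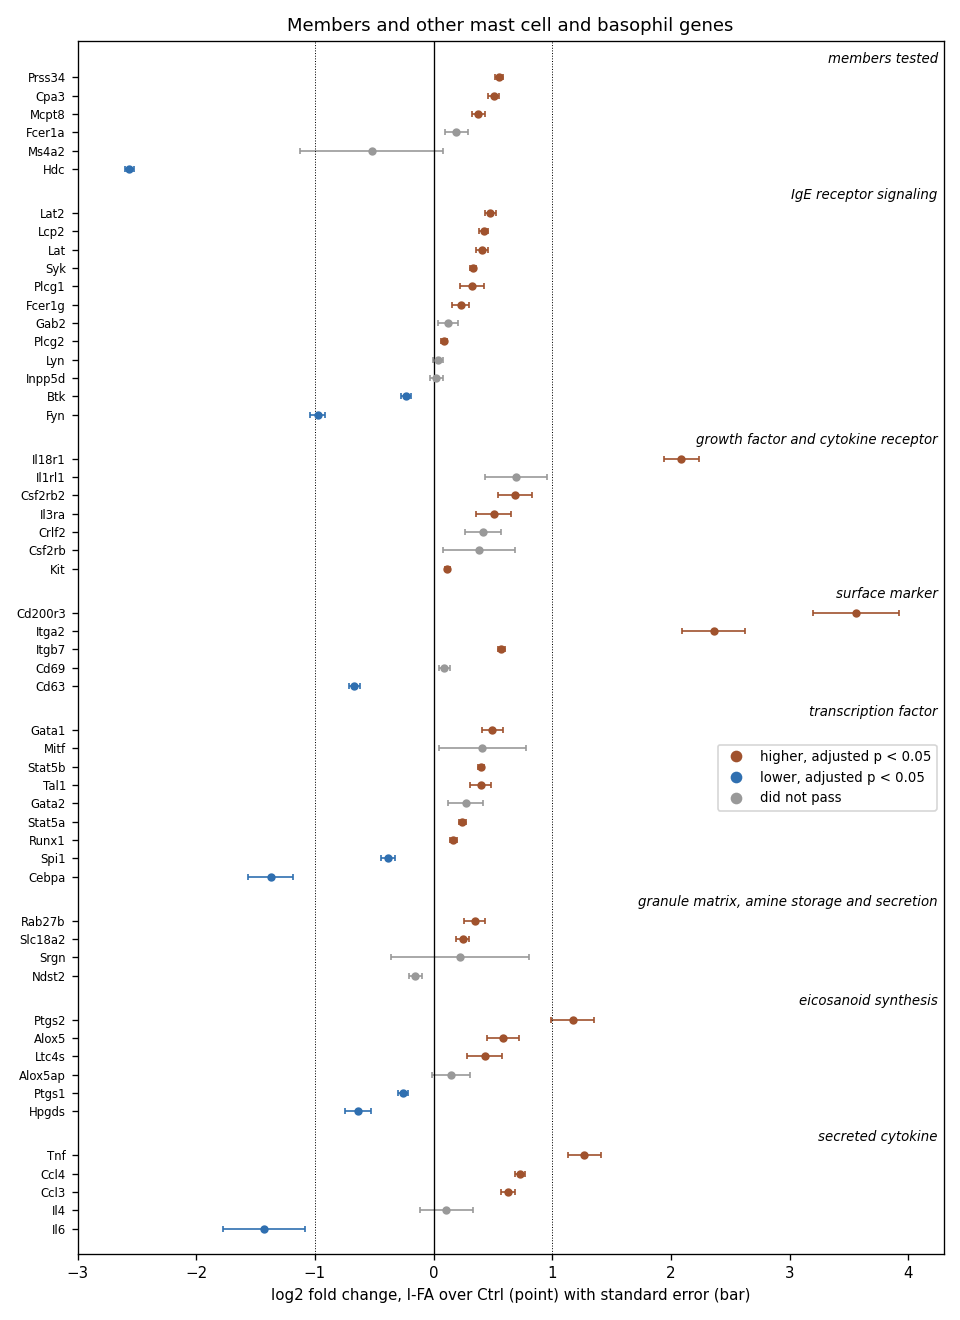
Log2 fold changes of l-FA over Ctrl (horizontal axis) are given with standard errors for the 6 members tested and for the wider genes by role, coloured by the edgeR call, with dotted lines at 2-fold. Hdc stands apart at -2.56 among the members, and Cd200r3, Itga2 and Il18r1 are the largest rises shown. Tpsb2 and Cma1 are left out because they had no counts in Ctrl.

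Of 9 transcription factor genes 5 were higher and 2 lower. Gata1 rose by 0.50 on the log2 scale (adjusted p = 0.00401 from edgeR), while Gata2 (0.27, adjusted p = 0.18) and Mitf (0.41, adjusted p = 0.396) did not pass in the same fit. Stat5b, the most abundant, rose by 0.40 (adjusted p = 7.52e-05 from edgeR). Cebpa, which drives granulocyte and monocyte fate, had 202, 201 and 203 counts in Ctrl and 113, 69 and 66 in l-FA, a log2 fold change of -1.37 ± 0.19 (SE, edgeR adjusted p = 0.00132). Gata1, Gata2 and Mitf were named for their known roles after their values were seen.

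Granule and mediator genes moved in both directions. The vesicular amine transporter gene Slc18a2, which loads histamine into granules, rose by 0.24 on the log2 scale (adjusted p = 0.0107 from edgeR; named after its value was seen), opposite to Hdc. Srgn, the proteoglycan core of the granule, had counts of 3812, 3695 and 12158 in Ctrl and 3519, 10226 and 9960 in l-FA and did not pass (0.22 ± 0.58 SE, edgeR adjusted p = 0.776). Of 6 eicosanoid genes 3 were higher and 2 lower. Ptgs2, an inducible cyclooxygenase, had 37, 24 and 27 counts in Ctrl and 73, 71 and 66 in l-FA (log2 fold change 1.17, adjusted p = 0.00203 from edgeR), and the abundant Alox5ap did not pass (0.15, adjusted p = 0.493). Of 5 cytokine genes 3 were higher and 1 lower, with Tnf at 1.27 (adjusted p = 0.000476), Ccl4 at 0.73 (adjusted p = 4.58e-05) and Il6 at -1.43 (adjusted p = 0.0137, all log2 fold changes from edgeR). No library held more than 23 counts of Il6, which entered the test only through the Ctrl libraries, and without both libraries numbered 1 it did not pass (adjusted p = 0.096 from edgeR).

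Neighbours of the same family were looked for within 1 Mb of Mcpt8, Prss34 and Ms4a2, and they did not all move alike. Ctsg, the cathepsin G gene that lies beside Mcpt8 and is a neutrophil protease, had 11894, 11452 and 12224 counts in Ctrl and 4109, 3903 and 3718 in l-FA (log2 fold change -1.68, adjusted p = 6.06e-07 from edgeR). Gzmb, the granzyme B gene of the same cluster, had 3 to 4 counts in Ctrl and 21 to 26 in l-FA (log2 fold change 2.53 ± 0.26 SE, edgeR adjusted p = 0.000366), and it too entered the test only through the l-FA libraries. Thus Mcpt8 rose and Ctsg fell within a stretch of chromosome 14 from 56178908 to 56499717, which also holds Gzmb and Cma1.

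Next to Ms4a2 on chromosome 19, Ms4a3, a gene of granulocyte and monocyte progenitors, fell from 384 ± 12.3 CPM to 58.1 ± 2.13 CPM (SD, n = 3), a log2 fold change of -2.72 ± 0.040 (SE, edgeR adjusted p = 6.06e-07), close in size to that of Hdc. Its other relatives within 1 Mb were mostly higher. Ms4a4c (1.16), Ms4a6d (1.07), Ms4a4b (0.82) and Ms4a6b (0.27) passed with adjusted p from 0.000367 to 0.00446 (edgeR), while Ms4a7 (1.15, adjusted p = 0.0641) and Ms4a6c (0.09, adjusted p = 0.12) did not. Without l-FA library 1 the adjusted p of Ms4a7 was 0.0491 (edgeR), and Ms4a7 entered the main test only through the l-FA libraries. Ms4a4a had 0 counts in Ctrl and 13, 5 and 4 in l-FA. Its mean level in l-FA was 2.28-fold the floor of 3 counts per Ctrl library. That mean rests mostly on l-FA library 1, and the other l-FA libraries lay near the floor. Ms4a1, which encodes the B cell antigen CD20, had 7 to 13 counts in Ctrl and 0 in l-FA, at least 3.31-fold lower.

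Markers of other cell types moved beside these genes. Of 9 eosinophil markers 5 were higher and 2 lower, and their summed level was 159 to 160 CPM in Ctrl and 278 to 279 CPM in l-FA. Prg2, the major basic protein gene of eosinophil granules, was the most abundant, with 1336 to 1442 counts in Ctrl and 2959 to 3283 in l-FA (log2 fold change 1.09 ± 0.033 SE, edgeR adjusted p = 4.9e-06). The eotaxin receptor gene Ccr3, in the same list and named after its value was seen, was lower (-1.70, adjusted p = 0.00312 from edgeR). Of 12 neutrophil and monocyte markers 9 were lower and 3 higher, with a median log2 fold change of -1.59 and a summed level of 23160 to 24100 CPM in Ctrl and 6157 to 6464 CPM in l-FA. Mpo, the myeloperoxidase gene, carried most of it (log2 fold change -1.91, adjusted p = 6.54e-07 from edgeR). Camp, counted among the 9 and named after its values were seen, had 24, 18 and 35 counts in Ctrl and 10, 12 and 4 in l-FA. It entered the test only through the Ctrl libraries. None of the markers in either list was at 0 in all libraries. Each list held genes of both signs. The 9 lower neutrophil and monocyte markers were Mpo, Elane, Prtn3, Ctsg, Ltf, Camp, Ngp, S100a8 and S100a9, all past 2-fold. The 3 higher ones were Lyz2 (0.30), Csf1r (0.10) and Ccr2 (0.68, all log2 fold changes), none past 2-fold. In the eosinophil list the 2 lower genes were Ccr3 and Siglecf (-0.55). The genes added here were named after their values were seen. The part of either cell type in these results was not tested.

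Among the remaining lists the directions differed. Megakaryocyte markers were higher for 4 of 6 genes and HSC markers for 5 of 9 with 1 lower, while the most abundant HSC marker, Meis1, did not pass (0.04, adjusted p = 0.561 from edgeR). Erythroid markers were higher for 2 and lower for 1 of 7, and the most abundant, Car1, did not pass (0.03, adjusted p = 0.654 from edgeR). Of the B cell markers 1 of 3 tested was higher (Cd79b, 0.22, adjusted p = 0.00247 from edgeR), and both tested T and NK cell markers were lower (Nkg7, -0.86, adjusted p = 4.3e-06 from edgeR). The T cell genes Cd3d, Cd3e and Cd8a had at most 10 counts in a library, were not tested and were named after their values were seen. Cd8a had 6, 6 and 10 counts in Ctrl and 0 in each l-FA library, and Cd3d had 9, 7 and 4 against 2, 0 and 0. For Cd3e, with 0, 0 and 4 against 6, 3 and 10, the groups overlapped. Nkg7 stood at 556 CPM in Ctrl. The other tested marker, Klrb1c, dropped from 81, 72 and 77 counts to 28, 14 and 41 (-1.54, adjusted p = 0.00779 from edgeR), past 2-fold. Klrb1c was also named after its values were seen. The part of T or NK cells in these falls was not tested.

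**Figure D3:**
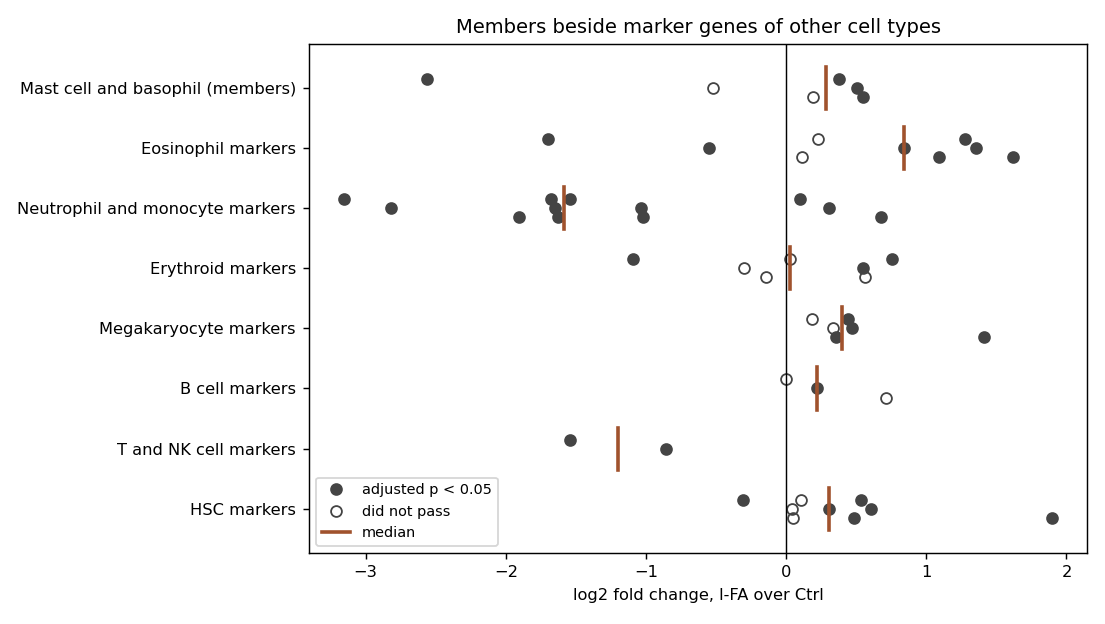
Each point is the log2 fold change of l-FA over Ctrl for 1 tested gene of a list, filled where the adjusted p passed, with the list's median as a bar. The members spread from -2.56 for Hdc to 0.55 for Prss34, beside the neutrophil and monocyte markers (median -1.59) and the eosinophil markers (median 0.84).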

How the data were processed

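RNA of sorted HSCs was amplified with a SMART-Seq kit and sequenced by the authors, who deposited raw read counts and FPKM per gene. The submitters' processing notes name GRCm39, HISAT2, SAMtools 1.3.1, StringTie and edgeR. Which tool made the counts, and whether strand was used, is not given in the sources used here, and the kit does not mark strand. Gene coordinates are as deposited.

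From the deposited counts, genes passing filterByExpr were tested with edgeR 4.0.16 (TMM scaling, quasi-likelihood F test, no covariate, Benjamini-Hochberg adjustment over 16520 genes) in R 4.3.3. A standard error (SE) was taken from the F statistic, as the absolute log2 fold change over its square root. CPM are counts scaled by the TMM library size. The FPKM deposited by the authors served only to compare levels between genes. Floors were 3 counts per library.

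The members and gene lists were chosen with earlier results of these data known. Besides the members, the genes named were those of the wider list past both thresholds and in each role the gene of highest mean FPKM. Named too were the gene with most counts in each marker list and family members within 1 Mb with at least 10 counts in a library. The 5 genes most like Prss34 were also named. Exceptions are marked where they occur, and 1 gene that this rule names is not reported here. Of the wider list, 8 symbols were not analysed here. As alternatives, each library was left out in turn, a replicate block was added, the filter was dropped or set to at least 10 counts in every library, scaling was by upper quartile or RLE, and DESeq2 1.42.0 replaced edgeR. Leaving out both libraries numbered 1 was added after the data were seen.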

Additional observations from a re-analysis of the deposited data

How the results depend on the processing

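Prss34 (log2 fold change 0.53 to 0.57), Cpa3 (0.49 to 0.53), Mcpt8 (0.34 to 0.42) and Hdc (-2.59 to -2.53) kept their direction and passed under all 13 alternatives, and Fcer1a (0.17 to 0.24) passed under none. The low counts of Ms4a2 and Cma1 limit what can be said of them. Leaving out 1 library at a time moved Ms4a2 from -1.21 (without l-FA library 1) to 0.21 (without Ctrl library 1), Srgn from -0.046 (without Ctrl library 2, and -0.045 without Ctrl library 1) to 0.98, and Meis1 from -0.012 (without Ctrl library 3) to 0.099. Members past 2-fold then numbered 1 to 2, and 2 with no filter on low counts, in each case because Cma1 entered the test.

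Replicate numbers are shared between groups, but same-numbered libraries did not deviate together (correlations -0.0684 to -0.00327 over 14620 genes), and none correlated best with its own number. With the replicate block, 2 members were lower instead of 1, since Ms4a2 (-0.52, adjusted p = 0.0377 from edgeR) passed, and 7405 instead of 8336 of all genes were called.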

Other observations

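The high Ms4a2 count of library 1 in both groups was not a feature of many genes. Among 14611 genes with a mean of at least 20 counts, 11 had a library 1 that lay at least 2-fold away, in the same direction in both groups, from both other libraries of its group, and in 4 of them library 1 was the higher. By the same measure library 2 stood apart for 13 genes and library 3 for 8. These counts were made after the Ms4a2 values were seen.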
